A study of Mus musculus with 46 samples.

Results

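The data describe TNF superfamily ligands and receptors in mouse microglia, 7 genes chosen by name from the 54134 genes of a raw count table and followed over 6 combinations of diet and genotype. The ligands are Tnf, Tnfsf9 (4-1BB ligand), Tnfsf12 (TWEAK) and Tnfsf13b (BAFF). The receptors are Tnfrsf1a (TNFR1), Tnfrsf1b (TNFR2) and Tnfrsf11a (RANK). All 7 had reads, and 5 of them passed the filter on low counts that the test across genes requires. Tnf and Tnfsf9 did not pass it and are described by their reads.

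Bulk RNA-seq was run on 46 libraries of microglia, the resident macrophages of the brain. AD libraries (24) came from 5xFAD mice, a model of Alzheimer's disease in which mutant human transgenes are expressed from the neuronal Thy1 promoter, and the other 22 came from WT mice. HAMSAB is a high-amylose resistant starch to which acetate and butyrate were coupled, the zero fiber diet lacks fiber, and the third diet is the control. There were 8 libraries of HAMSAB AD, 8 of HAMSAB WT, 8 of zero fiber AD, 6 of zero fiber WT, 8 of control AD and 8 of control WT, with 4 of each sex except for 2 males in zero fiber WT. The labels give no age, time on the diet or isolation method, and do not say that each library is a separate mouse, so the p-values below cover the spread among libraries, which may be technical.

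The libraries held between 52114 and 6950429 counts (median 2344837.5), and levels are given as CPM, counts scaled to the TMM-adjusted library size. The markers of microglia summed to between 25855 and 41904 CPM in zero fiber AD, the group of widest range, and all 10 were detected. The library labelled zero_fiber_AD_F replicate 1 had 1 read of Xist and 141 CPM of the Y-linked Ddx3y, against its label. The library zero_fiber_AD_M replicate 2 had the total of 52114, and the next lowest total was 783849. Both stay in the fit, and the members' levels in zero fiber AD are also given without them. Library titles carry numbers that form a lower and a higher series, which the labels do not call batches. HAMSAB WT had 5 libraries of the lower and 3 of the higher series, whereas control WT had 1 and 7.

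TNF superfamily ligands are mostly made as membrane proteins that proteases release, and they act on trimeric receptors that recruit TRAF adaptors or death domain proteins to activate NF-kB, MAP kinases or caspases. In microglia, TNF is a classical inflammatory product, TNFR1 is its widely expressed death domain receptor, and TNFR2 lacks a death domain and prefers membrane-bound TNF. BAFF is best known as a survival factor for B cells made by myeloid cells, TWEAK acts through Fn14, 4-1BB ligand co-stimulates T cells, and RANK is the receptor for RANKL in osteoclast precursors, which are of the macrophage lineage.

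Promoter windows from 250 bases before to 50 bases after a transcription start were available for 5 of the members (RefSeq, GRCm38.p6). They were searched on both strands for the core of the interferon-stimulated response element, by its name (GAAA, then any 2 bases, then GAAA), for the TATA box TATAAA, for the PU.1 core GAGGAAGT and for the NF-kB site by its consensus. The 3 windows shown are those with a match, and capitals mark the matched bases. The windows lie at chr8:10006383-10006682 on the plus strand for the second of 2 Tnfsf13b starts, at chr4:145246821-145247120 on the minus strand for Tnfrsf1b, and at chr17:35201958-35202257 on the minus strand for Tnf.
Tnfsf13b: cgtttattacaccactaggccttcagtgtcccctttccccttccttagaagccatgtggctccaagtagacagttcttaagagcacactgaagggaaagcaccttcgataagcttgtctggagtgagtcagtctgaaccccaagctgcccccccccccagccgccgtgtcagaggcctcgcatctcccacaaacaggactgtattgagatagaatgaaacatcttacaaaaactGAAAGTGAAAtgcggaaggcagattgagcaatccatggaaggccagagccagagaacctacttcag
Tnfrsf1b: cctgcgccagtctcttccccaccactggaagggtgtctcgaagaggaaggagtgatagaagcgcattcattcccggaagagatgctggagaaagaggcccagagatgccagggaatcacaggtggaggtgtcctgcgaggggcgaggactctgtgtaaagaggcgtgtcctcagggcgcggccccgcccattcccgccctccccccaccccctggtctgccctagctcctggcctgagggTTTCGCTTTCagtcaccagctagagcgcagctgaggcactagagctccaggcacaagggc
Tnf: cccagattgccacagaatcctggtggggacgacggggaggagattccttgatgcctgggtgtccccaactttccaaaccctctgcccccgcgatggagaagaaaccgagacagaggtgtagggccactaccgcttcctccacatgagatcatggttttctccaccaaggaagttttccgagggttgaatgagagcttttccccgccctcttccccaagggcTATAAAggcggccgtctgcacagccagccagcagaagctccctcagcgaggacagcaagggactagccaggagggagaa
The response element core began 16 bases before the Tnfsf13b start, on the forward strand, and its match in Tnfrsf1b lay on the reverse strand, 10 bases before the start. It occurred in 3.44% of 32851 promoter windows. The TATA box of Tnf began 29 bases before its start, and that motif occurred in 13.6% of the windows. The NF-kB site (8.46% of the windows) and the PU.1 core (3.2%) had no match in these windows of the 5 members. A match describes the letters and shows no binding.

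Of the 5 members tested, BAFF had the largest fold changes between diets. Tnfsf13b (ENSMUSG00000031497.9, chr8:10006467-10039072, plus strand, 7 exon blocks) encodes BAFF, and its transcript was higher on HAMSAB than on control in WT microglia. In HAMSAB WT the 8 libraries ran from 5.10 CPM through a median of 11.9 to 22.4 CPM, and in control WT from 3.23 through 4.79 to 8.80 CPM. The groups overlapped, with 5 of the 8 HAMSAB WT libraries above every control WT library. The means were 12.01 ± 5.93 CPM in HAMSAB WT and 5.18 ± 1.96 CPM in control WT (SD, n = 8 each). The fitted log2 fold change was 1.24 ± 0.28 (SE), with a 95% interval from 0.68 to 1.79 and an adjusted p of 0.0371 by edgeR's quasi-likelihood test with Benjamini-Hochberg adjustment over 12121 genes. In this comparison 0.281% of the genes tested were called at an adjusted p under 0.05, and among the members 1 of 5 was.

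That call rested on few reads, 320 over HAMSAB WT and 114 over control WT, and was lost without any 1 of 10 libraries. HAMSAB_WT_M replicate 2, the library with the highest total, had 156 of the reads, and without it the log2 fold change was 1.01 with an adjusted p of 0.146. The call was also lost without each of HAMSAB_WT_F replicates 1 and 4, HAMSAB_WT_M replicates 1 and 3, control_WT_F replicates 2 and 3 and control_WT_M replicates 2, 3 and 4, at adjusted p between 0.0514 and 0.124 and log2 fold changes between 1.103 and 1.44. Without HAMSAB_WT_M replicate 1 or control_WT_M replicate 3 the fold change was larger than in the full fit, at 1.34 ± 0.27 and 1.44 ± 0.29 (SE). The adjusted p also depends on the other genes, and each of these 2 fits called 1 gene in all, against 34 in the full fit. A term for the title series gave 1.37 (adjusted p = 0.0737), and a fit with the compared libraries alone gave 1.25 (adjusted p = 0.0876). Within the lower series the mean was 12.8 CPM in 5 HAMSAB WT libraries, against 4.79 CPM in 1 control WT library. Within the higher series it was 10.7 CPM in 3 HAMSAB WT libraries and 5.23 CPM in 7 control WT libraries.

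Against zero fiber, the WT difference was of like size and was not called. Zero fiber WT libraries ran from 4.62 through 6.78 to 7.98 CPM, and 6 of the 8 HAMSAB WT libraries lay above all 6 of them. The log2 fold change for HAMSAB against zero fiber was 1.06 ± 0.31 (SE), from 0.43 to 1.69 (adjusted p = 0.0567, edgeR quasi-likelihood). In that comparison 2.19% of genes were called and 0 of 5 members. Tnfsf13b was the member at an unadjusted p under 0.05, as were 12% of all genes. Within the title series the means were 12.8 CPM in HAMSAB WT and 6.03 CPM in zero fiber WT for the lower, and 10.7 CPM in HAMSAB WT and 7.24 CPM in zero fiber WT for the higher.

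In AD microglia Tnfsf13b ran from 7.76 through 11.1 to 17.7 CPM on HAMSAB, from 0 through 5.64 to 13.9 CPM on zero fiber and from 4.30 through 6.42 to 14.4 CPM on control. The HAMSAB AD range overlapped both others, with 1 of its 8 libraries above all of either. The log2 fold change was 0.78 ± 0.27 (SE) for HAMSAB against control (adjusted p = 0.149) and 0.65 ± 0.28 for HAMSAB against zero fiber (adjusted p = 0.392), both by edgeR quasi-likelihood. The first comparison called 0.0743% of genes and the second 0.239%, with 0 of 5 members in each, and 2 members had an unadjusted p under 0.05 in each, as did 15.3% of all genes in the first and 10.6% in the second. The AD means were ordered differently in the 2 title series. In the lower series the means were 12.4 CPM in 5 HAMSAB AD libraries, 3.12 CPM in 4 of zero fiber AD and 5.80 CPM in 4 of control AD. In the higher series they were 8.39 CPM in 2 HAMSAB AD libraries, 10.04 CPM in 4 of zero fiber AD and 8.84 CPM in 4 of control AD, and 1 HAMSAB AD library is in neither series. Without the 2 doubted libraries zero fiber AD ranged from 2.46 to 13.9 CPM with a mean of 7.99 ± 4.38 CPM (SD, n = 6), and the log2 fold change for HAMSAB against zero fiber was 0.52. Without zero_fiber_AD_M replicate 4 alone it was 0.98.

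**Figure D1:**
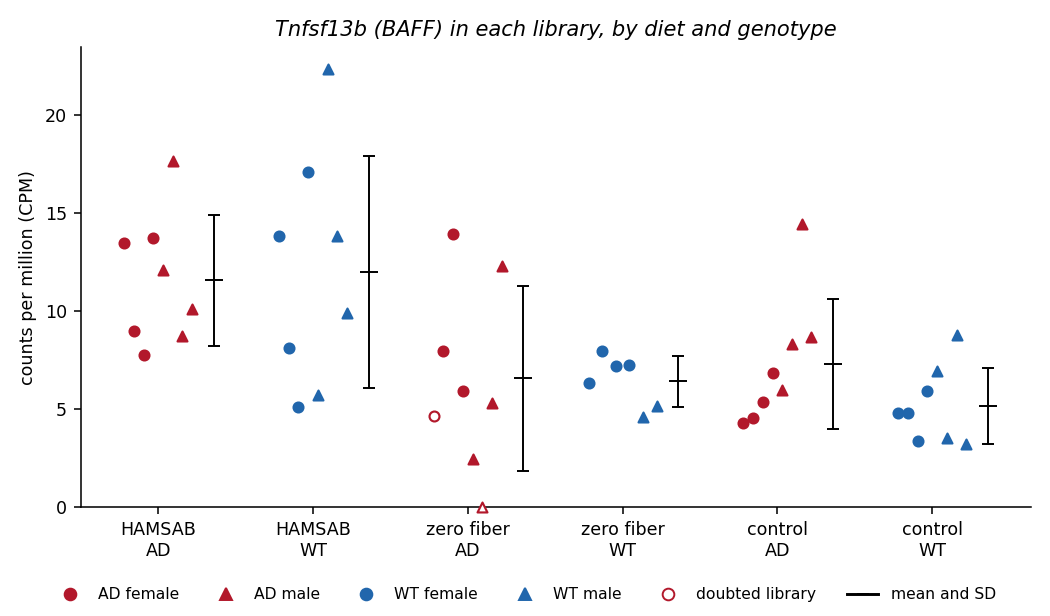
CPM of Tnfsf13b (vertical axis, linear from 0) in every library of the 6 groups of diet and genotype, AD left of WT, circles for females and triangles for males. Bars give the mean and SD, and open symbols are the 2 doubted libraries. HAMSAB WT reaches 22.4 CPM while no control WT library exceeds 8.80 CPM, and every group overlaps its neighbours.

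In the order of the group means, HAMSAB WT (12.01 CPM) and HAMSAB AD (11.6 CPM) came first, then control AD (7.32), zero fiber AD (6.58), zero fiber WT (6.43) and control WT (5.18). Of the 5 gaps between neighbours, the one between HAMSAB AD and control AD, 4.26 CPM, was larger than the SD of both groups. The other 4 were not. The response to HAMSAB was not shown to differ between genotypes. The difference of the log2 fold changes, AD minus WT, was -0.46 ± 0.39 (SE) against control (adjusted p = 0.948) and -0.42 ± 0.43 against zero fiber (adjusted p = 0.865, edgeR quasi-likelihood). The AD against WT differences were -0.08 ± 0.25 on HAMSAB, 0.34 ± 0.34 on zero fiber and 0.38 ± 0.29 on control, none called. Single libraries moved these values by more than 1.5 times. On zero fiber the difference was 0.0014 without zero_fiber_AD_M replicate 4, and on control it was 0.24 without control_AD_M replicate 3 and 0.58 without control_WT_M replicate 3. On HAMSAB it ran from -0.22 to 0.15, with the highest value without HAMSAB_WT_M replicate 2. The difference of the log2 fold changes was -0.08 against zero fiber without zero_fiber_AD_M replicate 4 and -0.24 against control without HAMSAB_WT_M replicate 2.

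Values of cell type markers were set beside the BAFF result for HAMSAB WT and control WT. The list of 5 B cell markers summed to 298 to 530 CPM in HAMSAB WT and 304 to 544 CPM in control WT, nearly all from Ighm and Cd79b, while Cd79a was at 0 in both groups, and Ms4a1 was at 0 in HAMSAB WT and averaged 0.0815 CPM in control WT. Of the 2 B cell markers tested, 1 was higher in HAMSAB WT. The 9 perivascular macrophage markers summed to 187 to 256 CPM in HAMSAB WT and 160 to 318 CPM in control WT, with 6 of 8 tested higher and 0 called. That sum came mostly from Stab1, with 22185 reads over all libraries, and the next marker, Mrc1, had 3250. The 8 T and NK cell markers summed to at most 0.847 CPM in HAMSAB WT and 1.42 CPM in control WT, with Ncr1 at 0 in every library. Of the 8 monocyte and neutrophil markers 4 could be tested, and 0 of these were higher. In AD the perivascular macrophage markers summed to 169 to 221 CPM in HAMSAB libraries, 183 to 461 CPM in zero fiber libraries and 168 to 398 CPM in control libraries. All 8 tested were lower on HAMSAB than on control, with a median log2 fold change of -1.27, and 0 were called although all 8 had an unadjusted p under 0.05 (edgeR). Among all genes tested in that comparison, 15.3% had an unadjusted p under 0.05 and 0.0743% were called. The B cell sum averaged 442 CPM in HAMSAB AD, 343 CPM in zero fiber AD and 375 CPM in control AD. For HAMSAB against zero fiber its exact permutation p was 0.0244 (adjusted 0.22). The perivascular macrophage sum averaged 196 CPM in HAMSAB AD, 293 CPM in zero fiber AD and 290 CPM in control AD. Its exact permutation p was 0.00342 for HAMSAB against zero fiber (adjusted 0.112) and 0.0143 for HAMSAB against control (adjusted 0.216). Other lists moved with the WT comparisons before adjustment. In exact two-sided permutation tests, adjusted over 99 tests of summed markers, the 10 microglia markers averaged 32145 CPM in HAMSAB WT and 35742 CPM in control WT (p = 0.0359, adjusted 0.273), and the 6 neuron markers 16.1 CPM in HAMSAB WT and 9.42 CPM in control WT (p = 0.0319, adjusted 0.263). In AD the neuron markers averaged 12.7 CPM on HAMSAB and 6.89 CPM on control (exact permutation p = 0.0166, adjusted 0.216). Against zero fiber in WT, 5 erythroid or choroid plexus markers averaged 152 CPM in HAMSAB WT and 413 CPM in zero fiber WT (exact permutation p = 0.00433, adjusted 0.112), with 0 of 5 higher and 1 called lower by edgeR. That sum joins hemoglobin genes with Ttr and does not separate them. Over all libraries Ttr had 14739 reads and the next marker, Hbb-bs, 7214. In the same comparison the B cell markers averaged 429 CPM in HAMSAB WT and 339.7 CPM in zero fiber WT (exact permutation p = 0.0193, adjusted 0.216). The microglia markers averaged 32145 CPM in HAMSAB WT and 35044 CPM in zero fiber WT (exact permutation p = 0.0453, adjusted 0.32). The T and NK cell markers averaged 0.193 CPM in HAMSAB WT and 0.919 CPM in zero fiber WT (exact permutation p = 0.0173, adjusted 0.216). These values rest on very few reads. Over all libraries Cd4 had 39 reads, and no other marker of that list had more than 3. The part of other cell types in these results was not tested, and in bulk RNA fewer cells of a type and less RNA per cell cannot be told apart.

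Tnf and Tnfsf9 were near the limit of detection. Tnf (ENSMUSG00000024401.14, chr17:35199381-35202007, minus strand) had 163 reads in all, with 0 to 12 per library and 9 libraries at 0. Pooled over all libraries this was 1.40 CPM, with an exact Poisson 95% interval from 1.20 to 1.64 that covers counting error only. The group means were 1.55 ± 1.44 CPM in HAMSAB AD, 1.301 ± 0.69 in HAMSAB WT, 1.31 ± 1.07 in zero fiber AD, 1.93 ± 1.004 in zero fiber WT, 0.677 ± 0.644 in control AD and 1.41 ± 1.298 in control WT (SD). Without the 2 doubted libraries the mean of zero fiber AD was 1.64 ± 1.02 CPM (SD, n = 6). Every group overlapped every other, and no gap between neighbouring means exceeded the larger SD.

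Tnfsf9 (ENSMUSG00000035678.8, chr17:57105325-57107757, plus strand), which encodes 4-1BB ligand, had 159 reads, 0 to 17 per library, with 11 libraries at 0. It averaged 1.44 ± 0.76 CPM in HAMSAB AD, 2.08 ± 1.66 in HAMSAB WT, 0.597 ± 0.613 in zero fiber AD, 0.558 ± 0.741 in zero fiber WT, 1.65 ± 1.05 in control AD and 1.21 ± 1.17 in control WT (SD). Zero fiber AD averaged 0.690 ± 0.666 CPM (SD, n = 6) without the 2 doubted libraries. The zero fiber groups were the lowest, with 12 reads over zero fiber AD and 7 over zero fiber WT, and 3 libraries at 0 in each. Exact two-sided permutation tests over libraries, 18 for the 2 genes and chosen after the data were seen, gave a lowest p of 0.0165 for zero fiber against control in AD, which was 0.285 after adjustment. HAMSAB against zero fiber had p = 0.0317 in AD (exact permutation, adjusted 0.285) and p = 0.0546 in WT (exact permutation, adjusted 0.328). Without the 2 doubted libraries the first 2 of these became 0.0533 and 0.0806 (exact permutation). With no filter on low counts, edgeR called Tnfsf9 higher on HAMSAB than on zero fiber in WT (log2 3.34, adjusted p = 0.0145), from 49 reads over HAMSAB WT and 7 over zero fiber WT. That fit weights the sexes equally, and the 2 male libraries of zero fiber WT had 0 reads of Tnfsf9, so the size of the fold is uncertain. A noncoding gene, Gm11110, shares 192 exon bases with Tnfsf9 on the opposite strand and had 11 reads.

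Tnfsf12 (ENSMUSG00000097328.7, chr11:69686250-69695849, minus strand) encodes TWEAK, and no comparison called its transcript. It ran from 10.3 through 14.8 to 19.2 CPM in HAMSAB AD and from 9.79 through 14.9 to 21.7 CPM in HAMSAB WT. Zero fiber AD ran from 0 through 13.4 to 22.1 CPM, the 0 being the shallow library, and zero fiber WT from 14.5 through 18.4 to 22.6 CPM. Control AD ran from 6.38 through 17.2 to 25.3 CPM and control WT from 12.2 through 15.04 to 22.7 CPM. All groups overlapped, and no gap between neighbouring means exceeded the larger SD. AD against WT on zero fiber had the member's lowest p, with means of 12.7 ± 7.11 CPM in AD and 18.5 ± 2.62 CPM in WT (SD, n = 8 and 6). The log2 fold change was -0.47 ± 0.23 (SE), with an unadjusted p of 0.0474 and an adjusted p of 0.9999 by edgeR quasi-likelihood, and 0.00825% of genes were called. Without the 2 doubted libraries AD averaged 14.6 ± 5.83 CPM (SD, n = 6), and the log2 fold change was -0.43. Single libraries moved the fold further, to -0.25 without zero_fiber_AD_M replicate 3 and to -0.68 without zero_fiber_AD_M replicate 1. Within the lower title series the means were 10.3 CPM in AD and 19.3 CPM in WT, and within the higher 15.01 CPM in AD and 16.8 CPM in WT. The value is uncertain as a level of TWEAK, because the read-through gene Tnfsfm13 shares 731 exon bases on the same strand and was given 86 reads, and how the counting treated strand and shared reads is not stated in these sources.

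**Figure D2:**
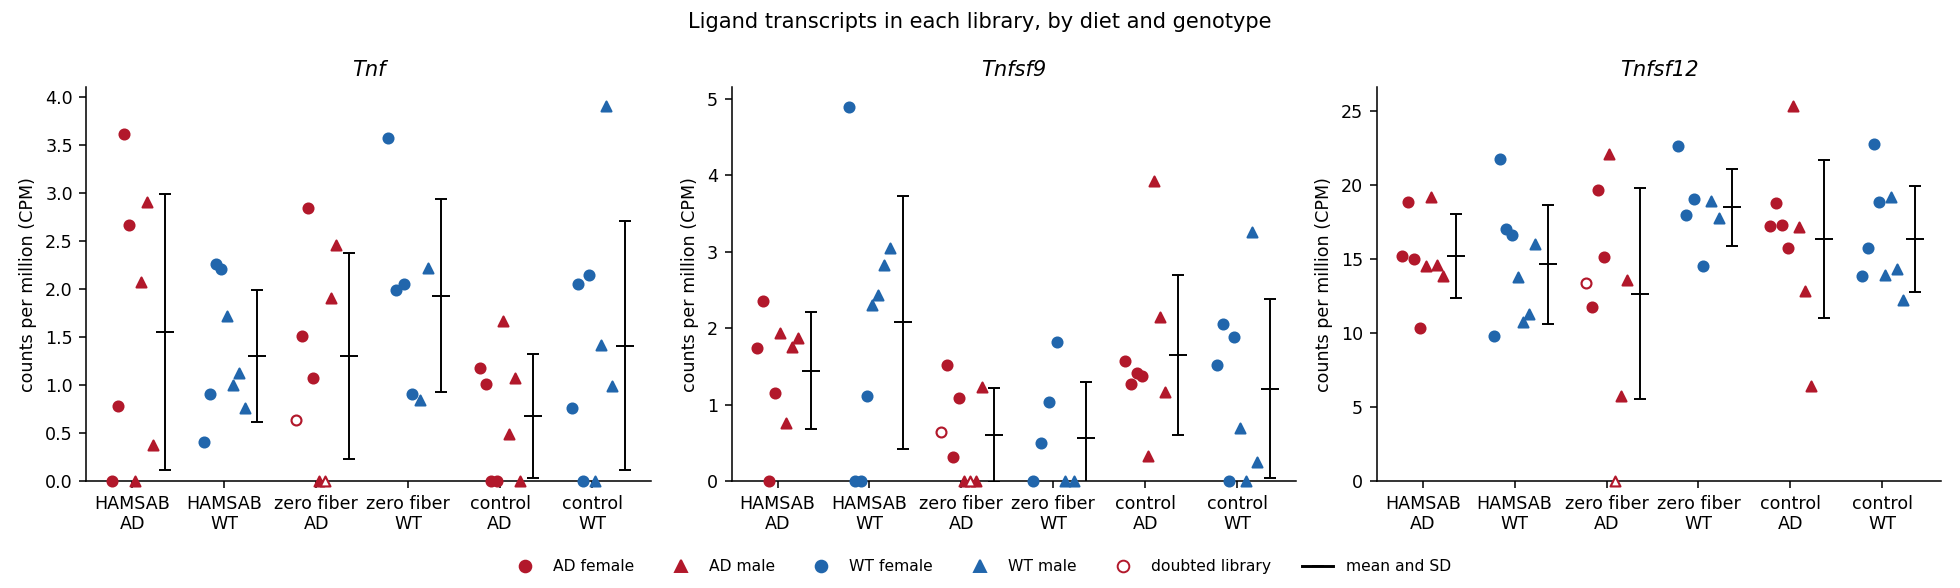
CPM of Tnf, Tnfsf9 and Tnfsf12 (vertical axes, linear from 0, each with its own scale) in every library by group, with mean and SD and symbols as in the plot of Tnfsf13b. Tnf stays under 4 CPM and Tnfsf9 under 5 CPM with many libraries at 0, and Tnfsf12 reaches 25.3 CPM.

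The 3 receptors were far better counted, with 10621 to 23663 reads each, and no comparison called any of them. Tnfrsf1b (ENSMUSG00000028599.10, chr4:145213463-145246870, minus strand), TNFR2, came closest. It ran from 136 through 172 to 217 CPM in HAMSAB AD, from 156 through 210 to 262 CPM in zero fiber AD and from 164 through 236 to 262 CPM in control AD. The ranges overlapped, with 4 of 8 HAMSAB AD libraries below every control AD library and 2 of 8 below every zero fiber AD library. The log2 fold change was -0.33 ± 0.12 (SE) for HAMSAB against control in AD, with an unadjusted p of 0.00748 and an adjusted p of 0.166, and -0.27 ± 0.12 for HAMSAB against zero fiber in AD, with 0.0292 and 0.401 (edgeR quasi-likelihood). The lowest zero fiber AD value, 156 CPM, was that of the doubted zero_fiber_AD_F replicate 1. Zero fiber AD averaged 216 ± 26.3 CPM (SD, n = 6) when the 2 doubted libraries were left out, and its lowest value was then 191 CPM. Against control the means were 171 CPM in 5 HAMSAB AD libraries and 229 CPM in 4 control AD libraries of the lower title series, and 188 CPM in 2 HAMSAB AD and 208 CPM in 4 control AD libraries of the higher. In WT the values ran from 131 through 194 to 234 CPM on HAMSAB, from 151 through 200 to 250 CPM on zero fiber and from 165 through 218 to 232 CPM on control. The WT fold changes were -0.18 ± 0.12 (SE) for HAMSAB against control and -0.14 ± 0.13 for HAMSAB against zero fiber. HAMSAB AD (174 ± 25.7 CPM) and HAMSAB WT (185 ± 34.6 CPM, SD) had the lowest means of the 6 groups, although no gap between neighbours exceeded the larger SD. The WT order differed between the title series. In the lower series the means were 174 CPM in 5 HAMSAB WT libraries, 219 CPM in 4 of zero fiber WT and 205 CPM in 1 of control WT. In the higher series they were 203 CPM in 3 HAMSAB WT libraries, 169 CPM in 2 of zero fiber WT and 208 CPM in 7 of control WT.

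Tnfrsf1a (ENSMUSG00000030341.17, chr6:125349362-125362484, plus strand), TNFR1, averaged 191 ± 17.7 CPM in HAMSAB AD, 202 ± 38.3 in HAMSAB WT, 190 ± 38.4 in zero fiber AD, 190 ± 34.6 in zero fiber WT, 221 ± 33.3 in control AD and 218 ± 26.4 in control WT (SD). The control groups had the highest means, by less than the spread between libraries, and all ranges overlapped. Over the 14 comparisons its log2 fold changes ran from -0.23 to 0.11 and its lowest adjusted p was 0.349 (edgeR quasi-likelihood). Without the 2 doubted libraries the mean of zero fiber AD was 205 ± 28.3 CPM (SD, n = 6).

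Tnfrsf11a (ENSMUSG00000026321.7, chr1:105780718-105847981, plus strand), RANK, had the narrowest range of fold changes among the 5 members tested. It averaged 91.9 ± 13.98 CPM in HAMSAB AD, 88.8 ± 18.3 in HAMSAB WT, 97.2 ± 10.6 in zero fiber AD, 93.8 ± 23.3 in zero fiber WT, 89.9 ± 19.3 in control AD and 90.0 ± 8.73 in control WT (SD). The mean of zero fiber AD without the 2 doubted libraries was 96.5 ± 11.8 CPM (SD, n = 6). All ranges overlapped. Its log2 fold changes ran from -0.16 to 0.13, and none had an unadjusted p under 0.05. For AD against WT on control the 95% interval ran from -0.23 to 0.26, and for HAMSAB against control in WT from -0.27 to 0.22.

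**Figure D3:**
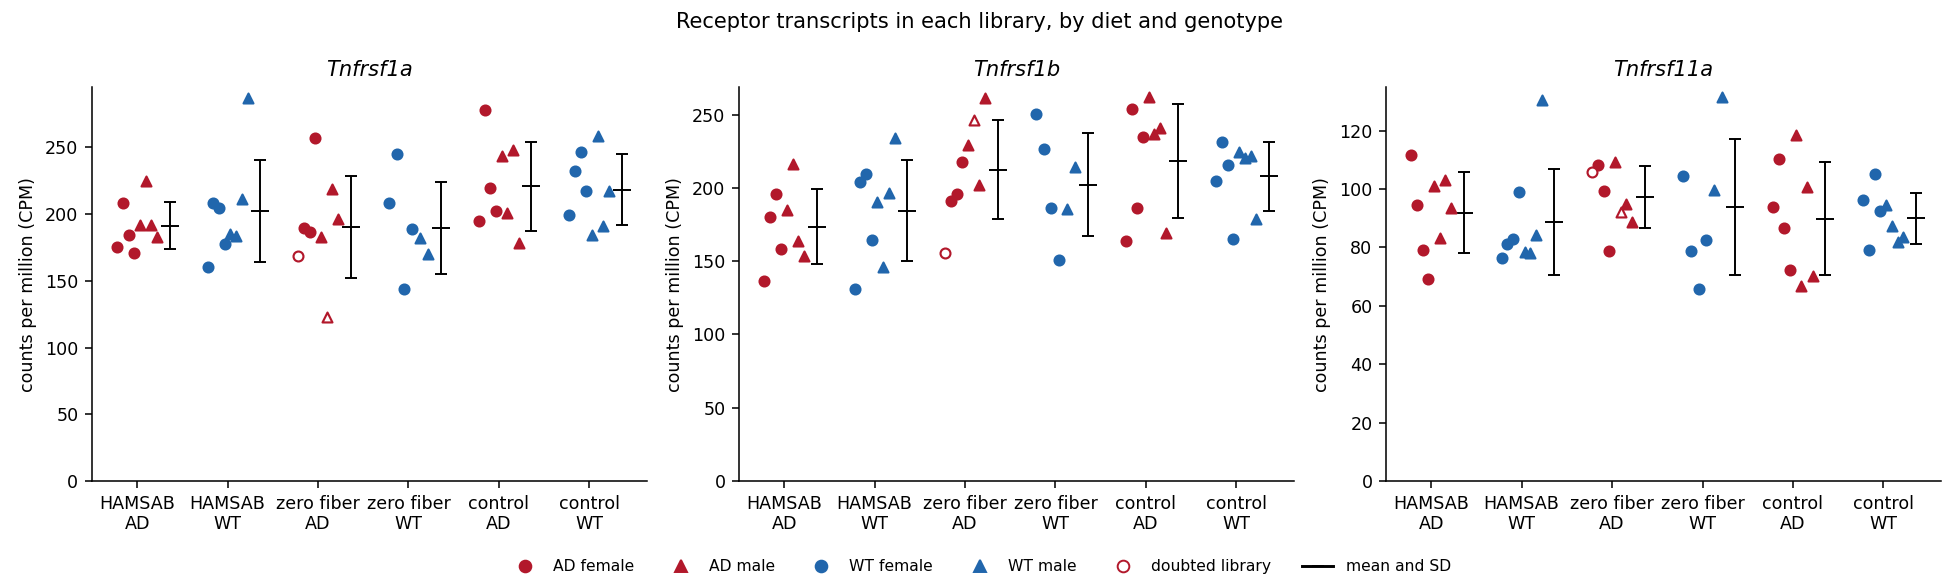
CPM of Tnfrsf1a, Tnfrsf1b and Tnfrsf11a (vertical axes, linear from 0) in every library by group, with mean and SD and symbols as in the plot of Tnfsf13b. Tnfrsf1b means over all libraries of a group are lowest in HAMSAB AD (174 CPM) and HAMSAB WT (185 CPM), and all groups overlap for all 3 genes. The order of the WT means differs between the title series.

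Genotype and sex called none of the 5 members tested by edgeR. AD against WT called 1.68% of genes on HAMSAB, 0.00825% on zero fiber and 0% on control, and 0.0165% over the mean of the 3 diets. At an unadjusted p under 0.05 stood 1 member in these 4 comparisons, Tnfsf12 on zero fiber. Of all genes, 12% stood there on HAMSAB, 4.7% on zero fiber, 5.41% on control and 7.28% over the mean of the 3 diets. F against M called 0.124% of genes, and the members' log2 fold changes lay between -0.13 and 0.17. The zero fiber against control comparisons called 0.0578% of genes in AD and 0.00825% in WT, again with 0 of 5 members and none at an unadjusted p under 0.05. Under that value stood 10.8% of all genes in AD and 7.58% in WT. Tests of a difference between genotypes in the diet response called 1.08% of genes for HAMSAB against zero fiber, 0% for HAMSAB against control and 0% for zero fiber against control, with 0 of 5 members called and none at an unadjusted p under 0.05 in each. In the same order, 9.46%, 5.53% and 6.17% of all genes had an unadjusted p under 0.05. DESeq2 and limma voom called Tnfsf13b for HAMSAB against control in WT and no other member in any of the 14 comparisons. Comparisons that use the same HAMSAB, zero fiber or control libraries are not independent of each other.

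**Figure D4:**
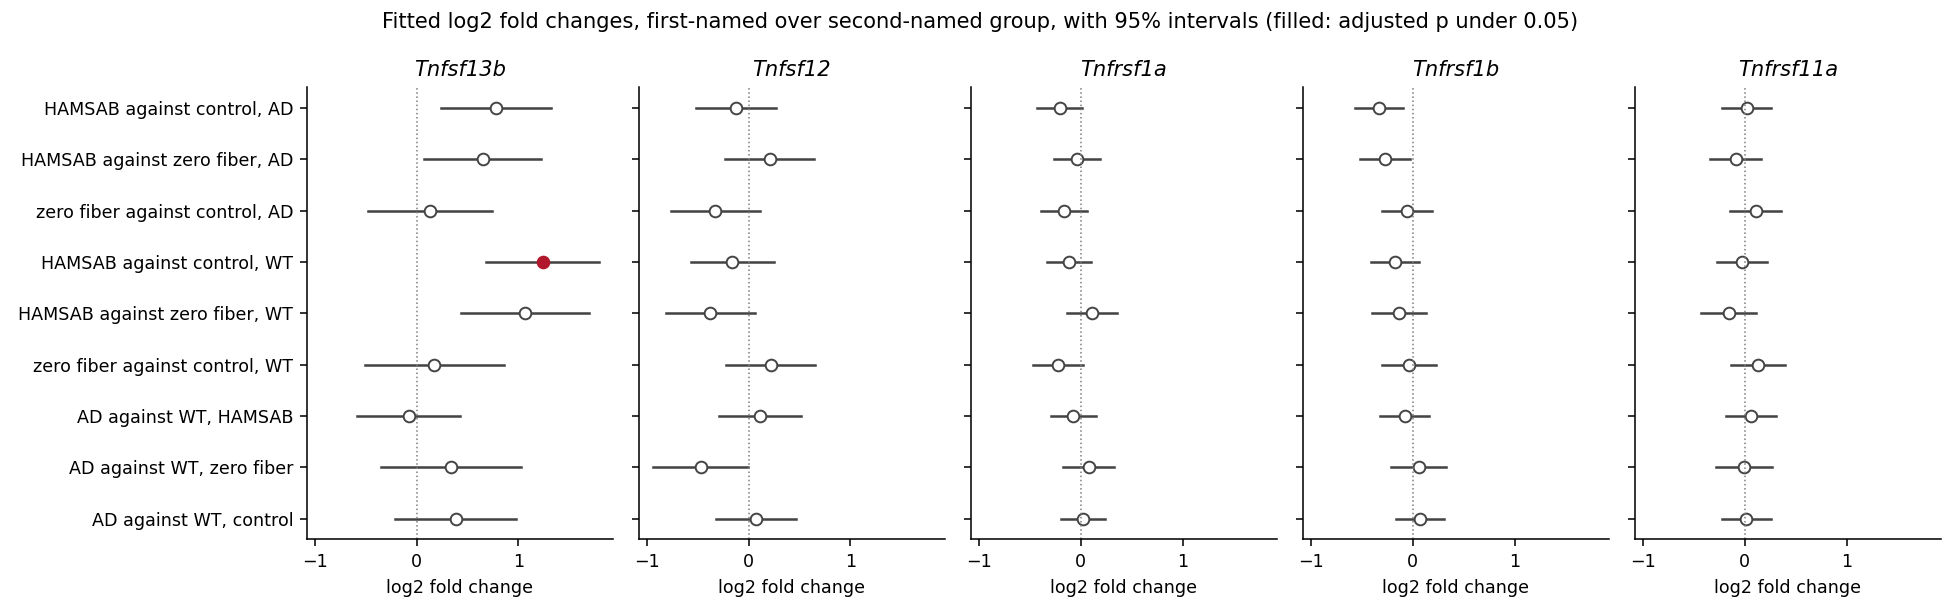
Fitted log2 fold changes of the 5 members tested (points, with lines for 95% intervals) in 9 comparisons, each the first-named group over the second-named. The filled point, Tnfsf13b for HAMSAB against control in WT (1.24), is the one with an adjusted p under 0.05.

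Levels were compared between genes per kb of exon, as the mean over 46 libraries, for each member and the partners it is known to bind, which were chosen with their values known. The length was the union of all annotated exons of a gene, 6868 bases for Tnfsf13b and 1639 for Tnf. The order of genes depends on that choice. Before division by length, Tnfsf13b averaged 8.26 CPM and Tnf 1.34 CPM. Tnfrsf1a was at 78.2 and Tnfrsf1b at 52.3 CPM per kb, against 0.817 for their ligand Tnf. The ratio of Tnfrsf1a to Tnfrsf1b per kb averaged 1.52 ± 0.25 (SD, n = 46) and was over 1 in 45 libraries, the exception being the shallow library zero_fiber_AD_M replicate 2, with 8 and 16 reads. Most of that ratio comes from the exon lengths, 2591 bases for Tnfrsf1a and 3818 for Tnfrsf1b. Before division by length Tnfrsf1a averaged 203 CPM and Tnfrsf1b 200 CPM. Some libraries had more reads of Tnfrsf1b, such as zero_fiber_AD_M replicate 4, with 319 of Tnfrsf1a and 425 of Tnfrsf1b. Of the BAFF receptors, Tnfrsf13b (TACI) was at 41.2 and Tnfrsf17 (BCMA) at 54.9 CPM per kb, while Tnfrsf13c (BAFF receptor) had 9 reads in all and BAFF itself stood at 1.20 CPM per kb. The value for Tnfsf12 (TWEAK), 10.2, was above that of its receptor Tnfrsf12a (Fn14), at 4.60 CPM per kb. As a level of TWEAK it is uncertain, because Tnfsf12 shares 731 exon bases with Tnfsfm13. For 4-1BB ligand, at 0.996, the receptor Tnfrsf9 had 1 read in all libraries together. RANK, at 15.3 CPM per kb, had no counted ligand, since Tnfsf11 (RANKL) had 0 reads, and the decoy receptor Tnfrsf11b had 2.

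**Figure D5:**
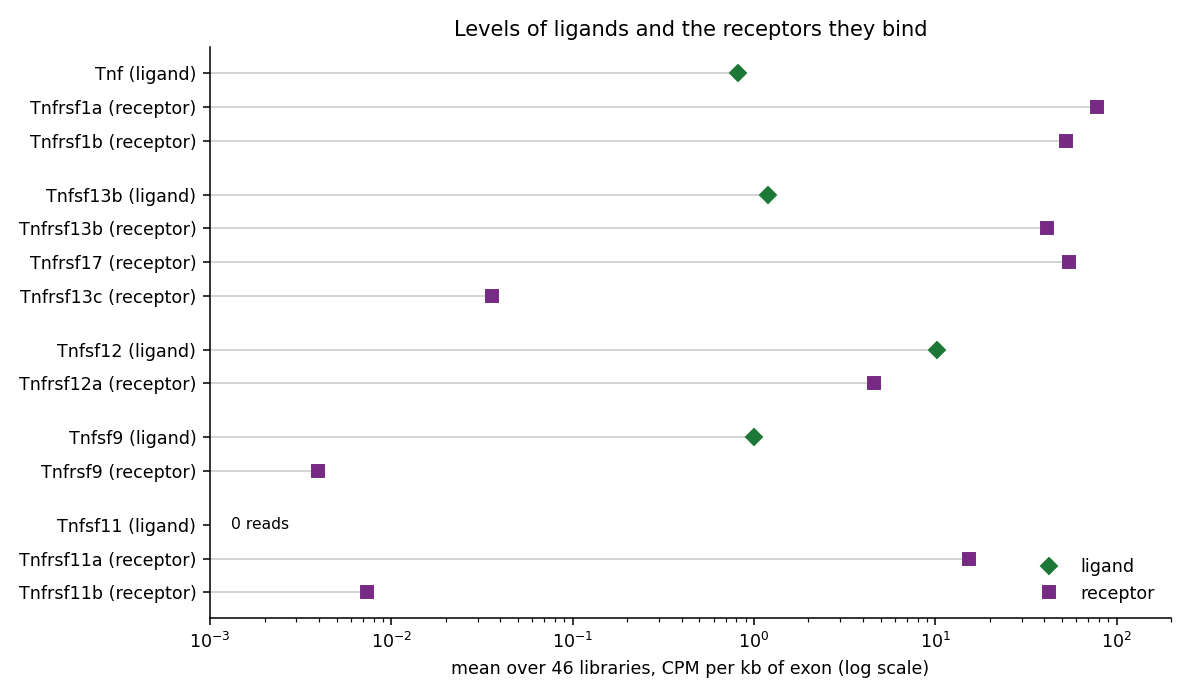
Mean level over the 46 libraries in CPM per kb of exon (horizontal axis, log scale) of each ligand (diamonds) and the receptors it binds (squares). Tnfrsf1a, Tnfrsf1b, Tnfrsf13b and Tnfrsf17 lie above 40 CPM per kb, Tnf and Tnfsf13b near 1, and Tnfsf11 had 0 reads.

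The rest of the family and the pathway were read as lists. Of 14 other TNF superfamily ligands 1 could be tested, Tnfsf10 (TRAIL), and 6 had 0 reads in every library (Lta, Tnfsf4, Cd40lg, Fasl, Cd70 and Tnfsf11). Tnfsf10 averaged 14.8 ± 5.66 CPM in HAMSAB WT, 10.1 ± 2.98 in zero fiber WT and 11.1 ± 2.99 in control WT (SD), with a log2 fold change of 0.55 ± 0.26 (SE) for HAMSAB against zero fiber in WT (unadjusted p = 0.0398, adjusted p = 0.38 by edgeR quasi-likelihood). Of 25 other receptors 11 were tested, and 0 of their 154 tests over the 14 comparisons were called, with 10 at an unadjusted p under 0.05. Over all genes tested, between 4.7% and 15.3% were under that value, depending on the comparison. Tnfrsf14 (HVEM) for HAMSAB against control in AD had 0.58 ± 0.19 (SE, adjusted p = 0.134, edgeR).

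Of 38 genes of TNF receptor signalling, adaptors, kinases and ubiquitin enzymes, 33 were tested and 0 were called in 462 tests by edgeR, with 35 at an unadjusted p under 0.05, beside the same 4.7% to 15.3% over all genes. For HAMSAB against control in WT 12 of the 33 were higher, with a median log2 fold change of -0.03, against 6005 of 12121 genes higher and a median of -0.0022 over all genes tested. The smallest p of the list there was that of Ripk1, the kinase at the TNFR1 complex, which averaged 42.8 ± 9.16 CPM in HAMSAB WT and 60.3 ± 14.2 CPM in control WT (SD), a log2 fold change of -0.51 ± 0.15 (SE, adjusted p = 0.108). For HAMSAB against control in AD it was that of Ikbkb, which encodes the kinase IKK-beta of the NF-kB pathway, with 149 ± 48.3 CPM in HAMSAB AD and 110 ± 19.2 CPM in control AD (SD), a log2 fold change of 0.44 ± 0.13 (SE, adjusted p = 0.0863).

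Of 8 genes of shedding and release 7 were tested and 2 were called, Adam10 in a comparison that called 2.19% of all genes and Furin in one that called 1.68%. Adam10, a membrane protease that sheds several surface proteins, was higher on HAMSAB than on zero fiber in WT, with 1742 ± 357 CPM in HAMSAB WT and 993 ± 302 CPM in zero fiber WT (SD), a log2 fold change of 0.93 ± 0.25 (SE, adjusted p = 0.0328, edgeR quasi-likelihood). Its call was lost without each of 9 libraries (zero_fiber_WT_M replicates 1 and 2, zero_fiber_WT_F replicates 1, 3 and 4, HAMSAB_WT_F replicate 1 and HAMSAB_WT_M replicates 1, 2 and 3), at log2 fold changes of 0.86 to 0.94 and adjusted p of 0.0511 to 0.22. Furin, the protease that cuts the BAFF and TWEAK precursors, was lower in AD than in WT on HAMSAB, with 105 ± 20.9 CPM in HAMSAB AD and 145 ± 22.2 CPM in HAMSAB WT (SD), a log2 fold change of -0.47 ± 0.12 (SE, adjusted p = 0.0385). Without each of 8 libraries (HAMSAB_WT_F replicates 1 and 2, HAMSAB_WT_M replicates 1 and 3, HAMSAB_AD_M replicates 2 and 4, and HAMSAB_AD_F replicates 1 and 4) its adjusted p was 0.0594 to 0.121, and with a term for the title series it was 0.0874. Adam17, the protease that releases soluble TNF and sheds both TNF receptors, averaged 328 ± 48.3 CPM in HAMSAB WT and 310 ± 40.1 CPM in control WT (SD) and was not called in any comparison.

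All 11 genes listed as regulators of Tnf expression were tested, most of them encoding proteins that bind AU-rich messages or control their decay, and 1 was called in 3 comparisons, where 1.68%, 2.19% and 1.08% of all genes were called. Khsrp, which promotes decay of AU-rich transcripts, averaged 72.2 ± 33.2 CPM in HAMSAB AD and 190 ± 44.5 CPM in HAMSAB WT (SD), a log2 fold change of -1.43 ± 0.27 (SE, adjusted p = 0.00325, edgeR quasi-likelihood). In WT it was higher on HAMSAB than on zero fiber (66.4 ± 26.2 CPM in zero fiber WT), by 1.58 ± 0.31 (adjusted p = 0.00454), and the diet response differed between AD and WT by -2.15 ± 0.42 (adjusted p = 0.0048). The second call was lost without zero_fiber_WT_M replicate 1 or 2 (adjusted p = 0.074 and 0.0704) and the third without zero_fiber_AD_M replicate 3 (-1.78, adjusted p = 0.0502). Zfp36, which encodes tristetraprolin, averaged 123 ± 17.8 CPM in HAMSAB WT and 136 ± 11.3 CPM in zero fiber WT (SD) and was not called in any comparison.

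The genes whose levels followed each member most closely were taken from 8495 well-counted genes over 45 libraries, as a description, since libraries share depth and composition. For Tnfsf13b they were Slamf8 (Pearson r = 0.58), Cd83 (0.57) and Kbtbd3 (0.55), and with the group means removed these were 0.43, 0.22 and 0.47. For Tnfrsf1b they were Smad1 (0.82), Map7d1 (0.79) and Clstn1 (0.78), and 0.80, 0.78 and 0.82 with the group means removed. For Tnfrsf1a they were Itgb5 and Ltbr (0.74 each) and Retreg1 (0.74). Tnfrsf11a was followed most by Runx1 (0.64) and Tnfsf12 by Nudt9 (0.64). Among the members, the closest pair was Tnfrsf1a and Tnfrsf1b (r = 0.59 over 45 libraries), and Tnfsf13b ran against the other 4, with r between -0.30 and -0.18, or between -0.25 and -0.10 with the group means removed.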

How the data were processed

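RNA-seq read counts of 46 microglia libraries were analysed from 1 table of raw counts per gene, which the authors deposited without normalization. Per the submitters' processing notes, tools included STAR 2.5.2b and featureCounts 1.5.2, with the mouse build GRCm38 (mm10). Which annotation the counting used, and how it treated strand and reads with several matches, is not given in the sources used here. Coordinates and exon lengths came from GENCODE M21 (GRCm38) by symbol.

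The edgeR function filterByExpr left 12121 genes. One model with 12 group means (diet, genotype and sex) was fitted to every library in edgeR 4.0.16 under R 4.3.3, with TMM factors of 0.919 to 1.25. It gave 14 comparisons by the quasi-likelihood test with Benjamini-Hochberg adjustment over all genes, and genes under 0.05 were called. Sexes were averaged with equal weight. Replicate numbers were given in accession order and pair no libraries. No pair of replicates held identical counts. The edgeR test was also run on simulated counts with known fold changes. Alternatives were DESeq2 1.42.0 size factors and its test, limma 3.58.1 voom with quality weights, no filter, a title series term, other sets of libraries and leaving out each library. Exact permutation tests of Tnf and Tnfsf9 were added after the data were seen.

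The members, the lists and the 2 doubted libraries were chosen with earlier results of these data known. All members were named, and other genes where called or, for a list without a call, where of smallest p. Partner receptors, Adam17 and Zfp36 were named besides, with their values known.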

Additional observations from a re-analysis of the deposited data

Results flagged for a closer look

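In 3 of 42 combinations of member and group examined, the gap between 1 library and the nearest other, as a share of the range of its group, passed the 95% critical value of Dixon's test, which by its construction chance passes in about 1 in 20 groups. The library control_AD_M replicate 3 had 14.4 CPM of Tnfsf13b (27 reads), and the nearest other control AD library had 8.71 CPM. The library HAMSAB_WT_M replicate 4 had 286.8 CPM of Tnfrsf1a and 130.5 CPM of Tnfrsf11a, and the nearest other HAMSAB WT libraries had 211.2 and 98.9 CPM.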

How the results depend on the processing

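The count of members called kept its value under each of the 7 alternatives and each library left out in 11 of the 14 comparisons. For HAMSAB against control in AD it was 1 with no filter on low counts (Tnfsf13b, adjusted p = 0.0451) and 0 otherwise. For HAMSAB against control in WT it was 0 with a term for the title series and with the compared libraries alone, 1 under the other 5, and between 0 and 1 when each library was left out, with the call kept in 36 of 46. Over the 7 alternatives the adjusted p of Tnfsf13b there ran from 4.18e-05 with no filter to 0.0876 with the compared libraries alone. For HAMSAB against zero fiber in WT it was 2 with no filter (Tnfsf9 and Tnfsf13b) and between 0 and 1 with a library left out, Tnfsf13b being called without HAMSAB_WT_M replicate 1 or 4, HAMSAB_WT_F replicate 3, zero_fiber_AD_F replicate 3 or zero_fiber_AD_M replicate 4. No called member changed direction under the settings run. The genes called over all genes moved by more than 1.5 times: with no filter, which tests 31448 genes, to 433 for HAMSAB against control in WT (34 as reported), 505 for HAMSAB against zero fiber in WT (265), 357 and 204 for HAMSAB against control and zero fiber in AD (9 and 29) and 464 for AD against WT on HAMSAB (204). For HAMSAB against control in WT it was 77 with DESeq2, 102 with voom, 1 with the title series term and 4 with the compared libraries alone. For HAMSAB against control in AD it was 93, 72, 25 and 70 in the same order, and 19 without the 2 doubted libraries. For zero fiber against control in AD (7) it was 24 with DESeq2, 0 with voom, 4 without the doubted libraries and 1 with the compared libraries alone, for zero fiber against control in WT (1) 9, 8, 2 and 12 with DESeq2, the title series term, no doubted libraries and the compared libraries alone, for AD against WT on zero fiber (1) 0 to 6, for AD against WT over the 3 diets (2) 0 with voom, for HAMSAB against zero fiber in AD 56 with DESeq2, and for AD against WT on HAMSAB 382 with voom. In the other 9 comparisons no filter gave between 66 and 374, against 0 to 131 as reported. With a library left out the count ran from 1 to 339 for HAMSAB against zero fiber and from 1 to 164 for HAMSAB against control in WT (the lowest without zero_fiber_WT_M replicate 2 for the first and without HAMSAB_WT_F replicate 1, HAMSAB_WT_M replicate 1 or control_WT_M replicate 3 for the second, the highest of both without HAMSAB_WT_M replicate 4), from 1 to 104 and from 16 to 72 for HAMSAB against control and zero fiber in AD (9 and 29), from 93 to 281 for AD against WT on HAMSAB (204), and from 6, without zero_fiber_AD_M replicate 3, to 197 for the genotype difference in HAMSAB against zero fiber (131), so the shares of genes called above move with single libraries. The cause was not tested. Depth limits Tnf and Tnfsf9, with a median of 3 reads per library. No paired analysis was possible because replicate numbers were given in accession order.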
